A study of Homo sapiens with 12 samples.

Results

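Interferon-stimulated genes are the genes that cells switch on when a type I or type II interferon binds its receptor. A set of 38 such genes, listed by symbol and matched to the Ensembl identifiers of the deposited table through current or older symbols, was followed across 12 RNA libraries of the leukaemia line MV-4-11. All 38 were found among the 20036 genes of the table. The list was not drawn from a test on these libraries, although it was put together with earlier results of the same data known.

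MV-4-11 is an established human acute myeloid leukaemia line, labelled wild type and as bone marrow, whose growth depends on a mutated FLT3 receptor kinase. The 4 groups of 3 libraries were labelled DMSO (the solvent), HPA-12 (the (1R,3S) form of a compound that blocks CERT, the carrier of ceramide), crenolanib (which blocks the FLT3 kinase) and the combination of both compounds. Treatment lasted 48 h, and neither the time of the DMSO libraries nor any dose is given in the sources used here. All groups share the same line and serum-containing medium, and the numbered libraries of a group are not said to come from separate cultures. What the p-values weigh is thus the scatter among these libraries, possibly technical alone.

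In the textbook pathway, type I interferons bind a receptor made of IFNAR1 and IFNAR2, whose kinases JAK1 and TYK2 phosphorylate STAT proteins. STAT2 joins IRF9 in a complex that binds the interferon-stimulated response element, a DNA motif built around repeats of GAAA. The genes it switches on sense foreign RNA, block viral replication, tag proteins with ISG15 and raise the supply of the pathway's own factors. Many haematopoietic cells keep a low tonic level of these genes without an added interferon.

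The response element was looked for in the promoters because interferon acts on such genes through it, and the windows below show the matches in 8 members whose levels are described further on. RefSeq promoter windows (build GRCh38.p14, 250 bases before to 50 bases after each annotated start) were found for 31 of the 38 members. The entries for IRF7, USP18, TRIM22, OASL, OAS2, MX2 and IFIT2 were missing. The motif, GAAA and GAAA with any NN between them, read on either strand (TTTC and TTTC with NN between them on the opposite one), occurred in 21 of the 31 members (67.7%) and in 4.38% of the 27305 genes with a window (3.57% of the 35116 windows of 300 bases). Each line gives 50 bases upstream of an annotated start, 5′ to 3′ along the gene's strand, with the matched bases in capitals.
IFIT1: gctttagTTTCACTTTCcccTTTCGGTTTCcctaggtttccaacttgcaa
IFIT3: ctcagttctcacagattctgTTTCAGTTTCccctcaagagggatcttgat
ISG15: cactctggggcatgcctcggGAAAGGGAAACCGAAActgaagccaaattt
RSAD2: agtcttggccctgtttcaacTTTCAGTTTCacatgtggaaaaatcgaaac
ISG20: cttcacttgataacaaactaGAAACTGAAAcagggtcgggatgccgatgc
SAMD9: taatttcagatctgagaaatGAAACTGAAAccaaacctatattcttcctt
EPSTI1: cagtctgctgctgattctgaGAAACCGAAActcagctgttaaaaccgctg
BST2: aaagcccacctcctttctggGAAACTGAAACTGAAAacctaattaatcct

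On GRCh38.p14 these windows lie at chr10:89392500-89392549, chr10:89332415-89332464, chr1:1013364-1013413, chr2:6877612-6877661 and chr15:88638927-88638976 on the plus strand. The windows of SAMD9 (chr7:93118086-93118135), EPSTI1 (chr13:42992262-42992311) and BST2 (chr19:17405731-17405780) lie on the minus strand. BST2, which fell in all treated groups, and the 7 others, which rose with HPA-12, hold the same motif in these windows. Of the 24 members with a window that rose with HPA-12, 17 held the motif. Of the other 7 with a window, 4 held it: BST2 and the untested DDX60, IFIT5 and MX1. IRF1, IFI35 and the untested RIGI did not. In all 4 untested members the HPA-12 libraries lay wholly above the DMSO libraries, as in 31.1% of the genes of the table. These counts therefore do not set risen members against members that did not rise. STAT2, the well expressed member with the largest rise, had no match in its window. The motif TTCNNNGAA, the core of the gamma-activated site to which STAT dimers bind, occurred in 10 of the 31 members (32.3%) and in 9.38% of genes, and 6 members held both motifs. The matches are descriptions of these letters and say nothing of binding.

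The members are also clustered in the genome. In RefSeq gene order, 19 of the 38 lie next to another member among protein-coding genes, in 9 runs. The runs are IFI44L and IFI44 on chromosome 1, CMPK2 and RSAD2 on 2, PARP9 and DTX3L on 3, HERC6 and HERC5 on 4, SAMD9 and SAMD9L on 7, IFIT2 and IFIT3 and, beside them, IFIT1 and IFIT5 on 10, OAS1, OAS3 and OAS2 on 12, and MX2 and MX1 on 21. PARP9 and DTX3L point away from each other, and their promoter windows share 137 bases, which include the DTX3L match. The windows of CMPK2 and RSAD2, on opposite strands, share up to 165 bases. How the authors' counting treated reads shared by such near copies or overlapping genes, and whether it used strand, is not given in the sources used here, so the split within each pair is uncertain.

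Levels are in FPKM (fragments scaled by gene length and library size, computed by the authors), and changes are log2 fold changes of FPKM + 1 with their standard error. Because 1 FPKM is added, this scale understates the changes of low genes. A gene was tested if it reached 1 FPKM in at least 3 of the 12 libraries, as 11149 genes did, and is said to have risen or fallen where its adjusted p was under 0.05 in limma. Of the 38 members, 11 were well expressed (tested, mean of at least 5 FPKM), 23 were low (tested, mean under 5 FPKM) and 4 (MX1, RIGI, DDX60 and IFIT5) were not tested. Tested members are those with some expression in some group. OAS1 reached 1 FPKM in 3 libraries, all of them HPA-12 libraries. OAS3, OASL and USP18 reached it in 4 libraries of 2 groups, every HPA-12 library among them. These members thus passed the filter only through HPA-12, the group where their mean was highest, so their HPA-12 calls are tied to the filter.

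The libraries differed in ways that bear on the values below. Estimated depth was 13.6 to 15.98 M reads in DMSO, 12.1 to 12.8 under HPA-12, 10.1 to 10.2 under crenolanib and 4.40 to 5.07 under the combination. The 13 mitochondrially encoded genes took 19.8%, 21.6%, 36.0% and 62.2% of the summed FPKM on average, and HBB averaged 70.0 FPKM in DMSO, 197 under HPA-12, 4026 under crenolanib and 23848 under the combination. The 12 erythroid markers summed to 77.3 to 83.9, 217 to 223, 4374 to 4652 and 27550 to 27996 FPKM in the 4 groups. By the mean over all 12 libraries 11 of them were well expressed, but in DMSO and under HPA-12 most of the sum was HBB. The 10 myeloid markers, led by MPO, LYZ, SPI1 and FLT3, summed to 1298 to 1308, 720 to 741, 1100 to 1122 and 736 to 778 FPKM, with CD68 at or near 0. Markers of plasmacytoid dendritic cells, which make much interferon, summed to 29.6 to 35.0, 46.3 to 51.6, 29.8 to 37.0 and 13.6 to 16.3 FPKM, with their defining marker CLEC4C at 0 in all 12 libraries. The 8 lymphoid markers summed to 64.3 to 66.0, 53.0 to 56.6, 27.8 to 38.1 and 23.8 to 27.3 FPKM, and the 8 stromal and epithelial markers to at most 14.4 FPKM in any library. The part of depth, mitochondrial share and erythroid expression in the results was not tested. In bulk RNA, fewer cells of a type and less RNA per cell cannot be told apart.

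HPA-12 raised the members widely, and crenolanib raised fewer of them by less. With both compounds together most members overlapped DMSO or lay below it, as did most genes of the table. Of those genes, 9.56% lay wholly above DMSO and 37.2% wholly below. With HPA-12, 31 of the 38 rose and 2 fell, where 43.2% of all tested genes rose and 34.5% fell. By more than 1 log2 unit, 19 rose, against 7.63% of all tested genes, and 0 fell (9.53%). With crenolanib, 24 rose and 2 fell (36.1% and 39.4% of all tested genes), 11 of the risen by more than 1 log2 unit (10.7%) and 0 of the fallen (7.96%). With the combination, 5 rose and 5 fell (12.4% and 50.1%), of which 2 rose and 3 fell by more than 1 log2 unit (6.80% and 33.3%). The combination counts rest on single libraries. Without any 1 DMSO library they were 2 higher and 2 lower, beside 9.39% to 9.66% and 40% to 40.3% of all tested genes. Without combination replicate 2 or 3, 9 were lower, beside 52.4% and 52.3% of all tested genes. The median change over the 34 tested members was 1.19 under HPA-12, 0.69 under crenolanib and -0.046 under the combination, beside 0.090, -0.039 and -0.62 over all tested genes. These comparisons share the DMSO libraries.

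**Figure D1:**
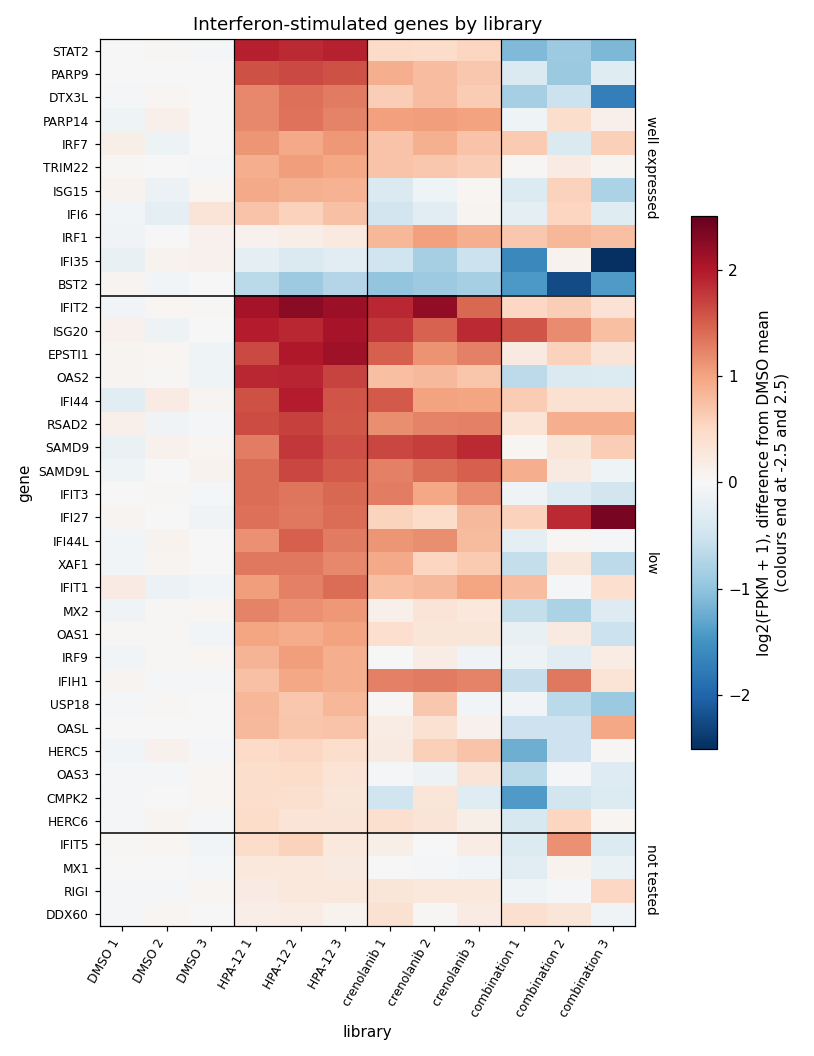
Each row is a member and each column a library; colour gives log2(FPKM + 1) minus the mean of the 3 DMSO libraries, and colours end at -2.5 and 2.5. The HPA-12 columns are red in all but the BST2 and IFI35 rows, the crenolanib columns are paler, and the combination columns are mixed, with IFI35 listed at 0 in the third library.

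The same pattern showed in levels without any test. The HPA-12 libraries lay wholly above the DMSO libraries in 36 of the 38 members and wholly below in BST2 and IFI35, where 31.1% and 22.2% of the genes of the table did so. The crenolanib libraries lay above DMSO in 27, below in 2 and overlapped in 9 (27.1% and 24.2% of the table were above and below). The combination libraries lay above in 7, below in 10 and overlapped in 21 (9.56% and 37.2%). HPA-12 gave the highest mean of the 4 groups in 29 members and crenolanib in 5, while the lowest mean was that of DMSO in 19, the combination in 17 and crenolanib in 2. In 18 members the HPA-12, crenolanib and DMSO libraries followed in that order with no overlap. The share of all genes with such orders of means or libraries was not computed, so these counts describe the members alone.

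Summed over the 38 members, expression was 364 to 388 FPKM in DMSO, 487 to 504 under HPA-12, 331 to 355 under crenolanib and 201 to 212 under the combination. BST2 alone made up much of these sums. Without it they were 138 to 145, 354 to 360, 211 to 222 and 112 to 162 FPKM. The sum without BST2 was therefore higher with crenolanib than in DMSO in every library, while the sum with it was lower. The combination libraries also varied more: the median coefficient of variation over the members was 43.2%, beside 10.3% in DMSO, 6.74% under HPA-12 and 14.4% under crenolanib. Values of 0 occurred 11 times, in 9 members, all in combination libraries, which were also the shallowest.

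**Figure D2:**
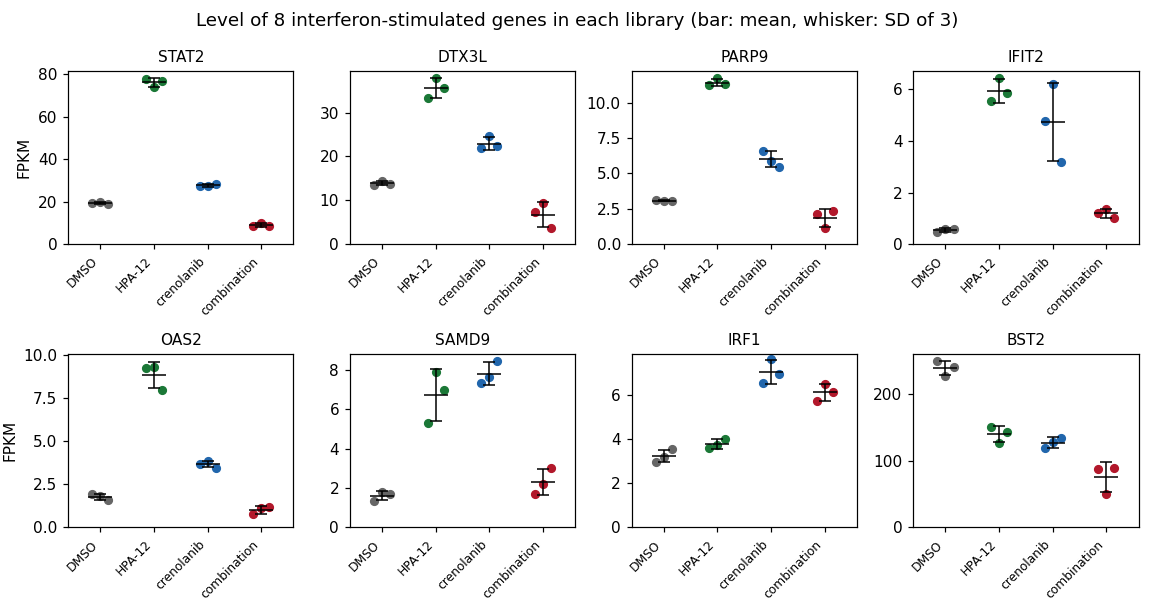
FPKM in each library for 8 members (points), with the mean (long bar) and the SD of 3 libraries (whisker). STAT2, DTX3L, PARP9 and OAS2 were highest with HPA-12 and lowest with the combination, IFIT2 and SAMD9 were high with both single compounds, IRF1 was high in both crenolanib groups, and BST2 was highest in DMSO.

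Among the transcription factors, STAT2, which brings the activating domain to the response complex, changed most. It stood at 19.5, 19.9 and 19.0 FPKM in the DMSO libraries, 77.5, 73.9 and 76.9 under HPA-12, 27.4, 27.3 and 28.5 under crenolanib and 8.54, 9.85 and 8.45 under the combination. All 4 groups were separate, HPA-12 highest and the combination lowest, and the SD within a group was at most 1.98 FPKM. STAT2 changed by 1.91 ± 0.043 (adjusted p = 1.60e-10) with HPA-12, by 0.49 ± 0.051 (adjusted p = 2.07e-05) with crenolanib and by -1.04 ± 0.11 (adjusted p = 2.57e-04) with the combination. IRF9, which makes the complex's specific contact with the DNA motif, was low, with 0.976 to 1.15 FPKM in DMSO, 2.77 to 3.28 under HPA-12, 0.968 to 1.36 under crenolanib and 0.731 to 1.38 under the combination. IRF9 rose with HPA-12, by 0.93 ± 0.085 (adjusted p = 2.57e-06), and its changes of 0.037 ± 0.11 (adjusted p = 0.775) with crenolanib and -0.067 ± 0.18 (adjusted p = 0.754) with the combination did not pass; under median-ratio scaling the last value was 0.30.

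IRF7, the factor that amplifies interferon gene transcription, was high with both single compounds. It stood at 13.5, 11.03 and 12.1 FPKM in the DMSO libraries, 27.3, 24.4 and 26.9 under HPA-12, 20.5, 23.4 and 20.5 under crenolanib and 19.7, 9.29 and 18.8 under the combination. The HPA-12 and crenolanib libraries were all above DMSO, and the second combination library fell below the DMSO range while the other 2 lay above it. The changes were 1.04 ± 0.074 (adjusted p = 3.98e-07), 0.77 ± 0.085 (adjusted p = 2.93e-05) and 0.29 ± 0.28 (adjusted p = 0.386) in the order HPA-12, crenolanib and combination. Without combination replicate 2, IRF7 passed in the combination, with 0.62 (adjusted p = 0.0053), and it also passed under median-ratio scaling, at 0.94 (adjusted p = 0.033).

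IRF1, a factor induced by interferon gamma and by other signals, followed crenolanib and not HPA-12. It stood at 2.98, 3.18 and 3.55 FPKM in the DMSO libraries, 3.58, 3.74 and 4.02 under HPA-12, 6.55, 7.63 and 6.95 under crenolanib and 5.73, 6.51 and 6.13 under the combination. Both groups that held crenolanib lay above the other 2 groups without overlap. IRF1 rose by 0.93 ± 0.091 (adjusted p = 1.38e-05) with crenolanib and by 0.75 ± 0.14 (adjusted p = 0.00379) with the combination, and its change of 0.18 ± 0.084 (adjusted p = 0.0789) with HPA-12 did not pass. With the mitochondrial genes left out of the library totals, the HPA-12 change passed, at 0.26 (adjusted p = 0.015).

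Of the RNA sensors, IFIH1, which encodes the MDA5 sensor of long double-stranded RNA, was the only one tested. It ran from 2.08 to 2.37 FPKM in DMSO to 4.33 to 5.29 under HPA-12, 6.59 to 6.91 under crenolanib and 1.13 to 6.98 under the combination, where single libraries spanned the whole range of the other groups. IFIH1 had log2 changes of 0.87 ± 0.089 (adjusted p = 6.47e-06) with HPA-12, 1.27 ± 0.083 (adjusted p = 9.59e-07) with crenolanib and 0.36 ± 0.45 (adjusted p = 0.513) with the combination. RIGI, the sensor of RNA ends, was at most 0.525 FPKM in any library, and DDX60, a helicase linked to these sensors, at most 0.406 FPKM. Both reached these values in combination libraries and were at 0 in another library of the same group.

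The IFIT proteins bind viral RNA and block its translation. On the scale of FPKM + 1, IFIT2 showed the largest rise of any tested member with each single compound. By the ratio of group means EPSTI1 rose more with HPA-12, from 0.363 to 4.21 FPKM, beside 0.553 to 5.94 FPKM for IFIT2. IFIT2 stood at 0.477, 0.596 and 0.587 FPKM in the DMSO libraries, 5.54, 6.42 and 5.84 under HPA-12, 4.75, 6.22 and 3.20 under crenolanib and 1.21, 1.37 and 1.005 under the combination. Levels with HPA-12 and crenolanib overlapped each other and lay far above the combination, which in turn lay above DMSO. IFIT2 changed by 2.16 ± 0.085 (adjusted p = 4.77e-09) with HPA-12, by 1.85 ± 0.18 (adjusted p = 1.20e-05) with crenolanib and by 0.50 ± 0.15 (adjusted p = 0.0234) with the combination. Its combination call was lost when any 1 DMSO library was left out (adjusted p 0.072 to 0.093).

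IFIT3, which stabilises IFIT1 on RNA, was at 0.744 to 0.814 FPKM in DMSO, 3.49 to 3.83 under HPA-12, 2.51 to 3.35 under crenolanib and 0.300 to 0.673 under the combination. Its changes were 1.39 ± 0.077 (adjusted p = 5.88e-08), 1.15 ± 0.11 (adjusted p = 1.26e-05) and -0.29 ± 0.15 (adjusted p = 0.142) in that order. IFIT1, which recognises RNA caps, had log2 changes of 1.23 ± 0.12 (adjusted p = 3.59e-06) with HPA-12, 0.85 ± 0.13 (adjusted p = 2.70e-04) with crenolanib and 0.38 ± 0.24 (adjusted p = 0.212) with the combination. For IFIT1 the estimated reads came out whole in all 12 libraries, and its combination libraries held 31, 10 and 21 reads. IFIT5, untested, stayed at 0.216 to 0.304 FPKM in DMSO and 0.519 to 0.892 with HPA-12. In the combination libraries it was listed at 0, 1.81 and 0 FPKM, so 1 library held its highest value and the other 2 none.

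The MX GTPases and the OAS family act on viral capsids and viral RNA. MX2 ran at 1.32 to 1.57 FPKM in DMSO, 4.24 to 4.81 under HPA-12, 1.69 to 2.07 under crenolanib and 0.433 to 0.985 under the combination. It rose by 1.16 ± 0.084 (adjusted p = 4.63e-07) with HPA-12 and fell in the combination, at -0.57 ± 0.18 (adjusted p = 0.0277), while 0.24 ± 0.10 (adjusted p = 0.0648) with crenolanib did not pass. The fall of MX2 did not pass under median-ratio scaling (-0.24) or when any 1 DMSO library was left out (adjusted p 0.065 to 0.10). MX1 was not tested, at 0.193 to 0.240 FPKM in DMSO, 0.431 to 0.465 with HPA-12 and 0 to 0.296 with the combination.

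OAS2, a synthetase of the short oligoadenylates that activate RNase L, was the member of its family with the highest level. It stood at 1.91, 1.84 and 1.56 FPKM in the DMSO libraries, 9.27, 9.32 and 7.97 under HPA-12, 3.67, 3.84 and 3.47 under crenolanib and 0.749, 1.14 and 1.18 under the combination. The groups were fully separate, in the same order as those of STAT2. OAS2 rose by 1.83 ± 0.089 (adjusted p = 2.31e-08) with HPA-12 and by 0.75 ± 0.096 (adjusted p = 8.22e-05) with crenolanib. With the combination it was at -0.46 ± 0.17 (adjusted p = 0.0485), a call that was lost in 11 of the 14 alternative settings. The fall shrank to -0.070 under median-ratio scaling and did not pass there. It did not pass either when any 1 DMSO library (adjusted p 0.10 to 0.15) or combination replicate 1 (0.055) was left out, or with robust empirical Bayes (0.056).

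The other 3 of the family were lower. OAS1 rose by 0.98 ± 0.074 (adjusted p = 6.40e-07) with HPA-12 and by 0.34 ± 0.11 (adjusted p = 0.0178) with crenolanib; the crenolanib call was lost without DMSO replicate 2 (adjusted p = 0.057) or 3 (adjusted p = 0.082). OAS3 rose with HPA-12, by 0.41 ± 0.075 (adjusted p = 4.90e-04), and was at 0.048 ± 0.14 (adjusted p = 0.765) with crenolanib. OASL, an RNA-binding relative without synthetase activity, rose with HPA-12, by 0.74 ± 0.072 (adjusted p = 4.23e-06), and was at 0.22 ± 0.12 (adjusted p = 0.111) with crenolanib. In the combination none of these 3 passed, with -0.16 ± 0.21 (adjusted p = 0.539) for OAS1, -0.35 ± 0.19 (adjusted p = 0.161) for OAS3 and -0.025 ± 0.40 (adjusted p = 0.962) for OASL; the signs of OAS1 and OASL turned under median-ratio scaling (0.010 and 0.15). OASL was listed at 0 in combination libraries 1 and 2 and at 1.82 FPKM in the third.

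ISG15, a ubiquitin-like protein that is joined to other proteins, responded to HPA-12 and not detectably to crenolanib. It stood at 30.4, 25.7 and 29.3 FPKM in the DMSO libraries, 55.3, 53.5 and 52.8 under HPA-12, 22.0, 26.1 and 29.5 under crenolanib and 22.0, 42.8 and 16.05 under the combination. The HPA-12 libraries were separate from all others, and the combination libraries spread widely, with the second far above the other 2. ISG15 rose by 0.90 ± 0.061 (adjusted p = 2.72e-07) with HPA-12. Its changes of -0.14 ± 0.10 (adjusted p = 0.246) with crenolanib and -0.19 ± 0.32 (adjusted p = 0.636) with the combination did not pass, and the latter turned to 0.48 under median-ratio scaling. Without combination replicate 2 the change was -0.57 (adjusted p = 0.024).

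Enzymes that remove or attach ISG15 rose with HPA-12. USP18, which removes it and dampens the interferon receptor, rose with HPA-12, by 0.78 ± 0.080 (adjusted p = 6.88e-06), and was at 0.21 ± 0.18 (adjusted p = 0.312) with crenolanib and -0.56 ± 0.24 (adjusted p = 0.0803) with the combination. HERC5, the ligase that attaches it, rose by 0.47 ± 0.081 (adjusted p = 3.24e-04) with HPA-12 and by 0.51 ± 0.14 (adjusted p = 0.00798) with crenolanib, and was at -0.57 ± 0.31 (adjusted p = 0.154) with the combination. HERC6, a related ligase, rose by 0.37 ± 0.078 (adjusted p = 0.00144) and 0.29 ± 0.11 (adjusted p = 0.0390) with the single compounds and was at 0.060 ± 0.25 (adjusted p = 0.844) with both. The crenolanib call of HERC6 was lost when any 1 DMSO library was left out (adjusted p 0.072 to 0.12) or without crenolanib replicate 1 or 2 (adjusted p 0.078 and 0.063). In 1 fit of all 12 libraries neither gene passed with HPA-12 (adjusted p = 0.142 for HERC5 and 0.145 for HERC6) or crenolanib (0.108 and 0.227). The estimated reads of HERC5 in the combination libraries were 0, 15 and 30.

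PARP9 and its partner DTX3L form an ADP-ribosylating ubiquitin ligase, and both rose with each single compound. PARP9 stood at 3.10, 3.07 and 3.02 FPKM in the DMSO libraries, 11.3, 11.7 and 11.3 under HPA-12, 6.59, 5.92 and 5.49 under crenolanib and 2.16, 1.15 and 2.31 under the combination. DTX3L, its neighbour on chromosome 3, stood at 13.6, 14.4 and 13.7 FPKM in the DMSO libraries, 33.3, 37.8 and 35.5 under HPA-12, 21.8, 24.5 and 22.3 under crenolanib and 7.37, 9.30 and 3.58 under the combination. For both genes the groups were separate in the order HPA-12, crenolanib, DMSO and combination. PARP9 had log2 changes of 1.61 ± 0.066 (adjusted p = 6.17e-09), 0.78 ± 0.089 (adjusted p = 3.55e-05) and -0.53 ± 0.21 (adjusted p = 0.0647) with HPA-12, crenolanib and the combination. DTX3L changed by 1.29 ± 0.057 (adjusted p = 1.06e-08), 0.68 ± 0.063 (adjusted p = 9.74e-06) and -1.02 ± 0.29 (adjusted p = 0.0196). The fall of DTX3L with the combination did not pass under median-ratio scaling (-0.40) or when any 1 DMSO library was left out (adjusted p 0.058 to 0.067).

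PARP14, a mono-ADP-ribosyl transferase, rose with both single compounds as well. It stood at 6.14, 7.47 and 6.66 FPKM in the DMSO libraries, 16.8, 18.9 and 17.3 under HPA-12, 14.7, 14.97 and 14.5 under crenolanib and 6.17, 9.50 and 7.47 under the combination. The combination libraries overlapped DMSO, below both single compounds. The changes were 1.27 ± 0.076 (adjusted p = 1.05e-07), 1.02 ± 0.077 (adjusted p = 2.38e-06) and 0.15 ± 0.18 (adjusted p = 0.480), and under median-ratio scaling the last became 0.77 (adjusted p = 0.014).

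Of the antiviral effectors, BST2 (tetherin, which holds budding virus at the cell surface) was the most abundant member and fell in all 3 treated groups. It stood at 249, 227 and 241 FPKM in the DMSO libraries, 150.2, 127 and 143 under HPA-12, 119, 128 and 135 under crenolanib and 87.5, 49.98 and 89.0 under the combination. Every treated library lay below DMSO, the single compounds overlapped each other, and the second combination library was lowest. BST2 fell by 0.77 ± 0.064 (adjusted p = 1.29e-06) with HPA-12 on the log2 scale. It changed by -0.90 ± 0.054 (adjusted p = 5.62e-07) with crenolanib and by -1.69 ± 0.22 (adjusted p = 5.85e-04) with the combination, and the last was -1.01 under median-ratio scaling (adjusted p = 0.010).

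ISG20, an exonuclease that degrades RNA, rose in all 3 treated groups. It stood at 0.827, 0.544 and 0.696 FPKM in the DMSO libraries, 5.55, 5.24 and 6.03 under HPA-12, 4.73, 3.71 and 5.12 under crenolanib and 3.99, 2.80 and 1.85 under the combination. All treated libraries lay above DMSO, and the combination overlapped crenolanib. ISG20 rose by 1.97 ± 0.092 (adjusted p = 1.65e-08), 1.70 ± 0.13 (adjusted p = 2.15e-06) and 1.16 ± 0.24 (adjusted p = 0.00470) with HPA-12, crenolanib and the combination. RSAD2 (viperin, which makes a chain-ending nucleotide) also rose in all 3, by 1.63 ± 0.089 (adjusted p = 5.37e-08), 1.22 ± 0.10 (adjusted p = 5.42e-06) and 0.72 ± 0.21 (adjusted p = 0.0211). Its combination call was lost when any 1 DMSO library was left out (adjusted p 0.053 to 0.084). CMPK2, the nucleotide kinase beside it, rose by 0.38 ± 0.075 (adjusted p = 8.19e-04) with HPA-12 and was at -0.17 ± 0.18 (adjusted p = 0.412) with crenolanib and -0.74 ± 0.30 (adjusted p = 0.0679) with the combination.

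SAMD9 and SAMD9L, neighbouring genes whose products restrain growth and viral replication, were high with both single compounds. SAMD9 stood at 1.33, 1.82 and 1.70 FPKM in the DMSO libraries, 5.30, 7.89 and 6.97 under HPA-12, 7.33, 7.64 and 8.45 under crenolanib and 1.69, 2.22 and 3.01 under the combination. The libraries of the single compounds overlapped each other and lay above the rest, and the combination overlapped DMSO. SAMD9 had log2 changes of 1.55 ± 0.13 (adjusted p = 1.27e-06), 1.75 ± 0.10 (adjusted p = 4.83e-07) and 0.32 ± 0.20 (adjusted p = 0.206) in the order HPA-12, crenolanib and combination, the last reaching 0.80 under median-ratio scaling (adjusted p = 0.024). SAMD9L had log2 changes of 1.53 ± 0.096 (adjusted p = 1.56e-07), 1.38 ± 0.11 (adjusted p = 2.83e-06) and 0.34 ± 0.27 (adjusted p = 0.316).

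TRIM22, an antiviral ubiquitin ligase, was nearly as tight within groups as STAT2. It stood at 4.27, 4.17 and 3.97 FPKM in the DMSO libraries, 8.60, 9.66 and 8.996 under HPA-12, 7.46, 7.21 and 6.88 under crenolanib and 4.22, 4.88 and 4.38 under the combination. HPA-12, crenolanib and DMSO were separate in that order, and the combination overlapped DMSO. TRIM22 rose by 0.97 ± 0.072 (adjusted p = 5.18e-07) with HPA-12 and by 0.67 ± 0.076 (adjusted p = 3.63e-05) with crenolanib. With the combination it was at 0.096 ± 0.14 (adjusted p = 0.579), and at 0.67 under median-ratio scaling (adjusted p = 0.00998).

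The IFI genes did not move as a block. IFI6, a small membrane protein that protects cells from death, stood at 11.8, 10.4 and 15.8 FPKM in the DMSO libraries, 21.1, 19.0 and 21.3 under HPA-12, 8.81, 10.1 and 13.1 under crenolanib and 10.4, 18.5 and 9.99 under the combination. The HPA-12 libraries were above all others, which overlapped. IFI6 rose with HPA-12, by 0.67 ± 0.12 (adjusted p = 4.35e-04), and was at -0.22 ± 0.16 (adjusted p = 0.235) with crenolanib and 0.0028 ± 0.26 (adjusted p = 0.994) with the combination. IFI35, which pairs with NMI, stood at 9.17, 11.3 and 11.5 FPKM in the DMSO libraries, 8.998, 8.01 and 8.71 under HPA-12, 7.26, 5.50 and 6.96 under crenolanib and 2.79, 11.4 and 0 under the combination. The single compounds lay below DMSO, and the combination libraries ran from 0 to the DMSO level.

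IFI35 fell with HPA-12, at -0.28 ± 0.087 (adjusted p = 0.0129), and with crenolanib, at -0.62 ± 0.12 (adjusted p = 8.63e-04). The combination value of -1.69 ± 0.82 (adjusted p = 0.114) did not pass and was -2.58 (adjusted p = 0.011) without combination replicate 2. In 1 fit of all 12 libraries neither fall passed (adjusted p = 0.74 with HPA-12 and 0.417 with crenolanib), and the combination value did (adjusted p = 0.030). The HPA-12 fall of IFI35 was also lost with the mitochondrial genes left out of the totals (adjusted p = 0.085), without the filter on low values (0.059) and without DMSO replicate 2 (0.057) or 3 (0.061).

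IFI44 and IFI44L, neighbours on chromosome 1, rose with both single compounds. IFI44 had log2 changes of 1.71 ± 0.14 (adjusted p = 1.32e-06), 1.17 ± 0.18 (adjusted p = 2.51e-04) and 0.47 ± 0.20 (adjusted p = 0.0757), and IFI44L of 1.31 ± 0.099 (adjusted p = 6.12e-07), 1.02 ± 0.13 (adjusted p = 7.61e-05) and -0.082 ± 0.14 (adjusted p = 0.632), in the order HPA-12, crenolanib and combination; under median-ratio scaling the IFI44L combination value was 0.080. The IFI44 combination change passed under median-ratio scaling (0.97, adjusted p = 0.0083), in 1 fit of all 12 libraries (adjusted p = 0.047) and with the mitochondrial genes left out of the totals (adjusted p = 0.045). IFI27, a mitochondrial and nuclear membrane protein, stayed up in the combination, with 1.36 ± 0.077 (adjusted p = 6.88e-08), 0.61 ± 0.13 (adjusted p = 0.00196) and 1.60 ± 0.44 (adjusted p = 0.0164) in the same order. Its combination libraries spread from 0.878 to 5.51 FPKM, on 16, 75 and 105 estimated reads, and the call was lost when any 1 DMSO library was left out or without combination replicate 2 (adjusted p 0.051 to 0.055).

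EPSTI1 and XAF1 close the list. EPSTI1, an interferon-induced gene of macrophage activation, stood at 0.419, 0.404 and 0.265 FPKM in the DMSO libraries, 3.28, 4.48 and 4.88 under HPA-12, 2.83, 1.95 and 2.26 under crenolanib and 0.600, 1.04 and 0.706 under the combination. All 4 groups were separate, with the order HPA-12, crenolanib, combination and DMSO. EPSTI1 had log2 changes of 1.92 ± 0.12 (adjusted p = 1.30e-07), 1.29 ± 0.13 (adjusted p = 1.36e-05) and 0.38 ± 0.16 (adjusted p = 0.0725). The EPSTI1 combination change passed under median-ratio scaling (0.67, adjusted p = 0.023), without the filter on low values (adjusted p = 0.049) and without combination replicate 1 (adjusted p = 0.032). Its estimated reads in the combination libraries were 13, 26 and 16. XAF1, which opposes the apoptosis inhibitor XIAP, had log2 changes of 1.28 ± 0.080 (adjusted p = 1.55e-07), 0.71 ± 0.12 (adjusted p = 5.63e-04) and -0.31 ± 0.27 (adjusted p = 0.352), and the last turned to 0.080 under median-ratio scaling.

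**Figure D3:**
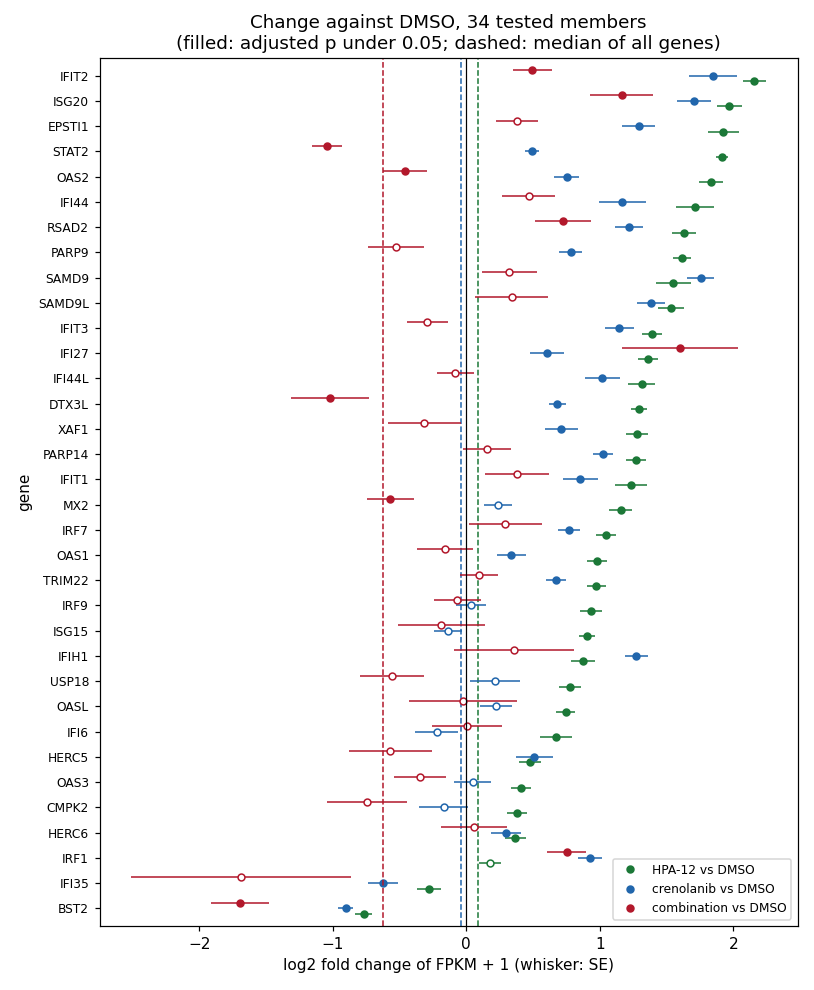
Log2 fold changes of FPKM + 1 against DMSO (points, whiskers: SE) for the 34 tested members, ordered by the HPA-12 change; filled points passed at an adjusted p under 0.05, and dashed lines give the median over all tested genes (0.090, -0.039 and -0.62). Green HPA-12 points run from -0.77 for BST2 to 2.16 for IFIT2, most blue crenolanib points lie to their left, and most red combination points are open.

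By level, the members that fell with either single compound, BST2 and IFI35, were both well expressed. With HPA-12, 8 of the 11 well expressed members rose and 2 fell, with a median of 0.97. All 23 low ones rose, including OAS1, OAS3, OASL and USP18, which passed the filter only through their HPA-12 libraries. These counts stand beside the 43.2% and 34.5% of all tested genes given above. Without the filter on low values, 35 of the 38 rose with HPA-12 and 1 fell, with a median of 1.01 over the 38, where 31.1% of the 17527 genes then tested rose and 23.2% fell. With crenolanib, 7 of the well expressed rose and 2 fell, and 17 of the low ones rose. Without the filter, crenolanib gave 25 higher and 2 lower with a median of 0.64, beside 26.1% and 24.5% of all genes. With the combination, 1 of the well expressed rose and 3 fell, and among the low ones 4 rose and 2 fell.

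Some calls of members with small or scattered changes depended on the fit or on 1 library. In 1 fit of all 12 libraries the HPA-12 rises of IFIH1, OAS3, OASL and CMPK2 did not pass (adjusted p = 0.051, 0.070, 0.069 and 0.26), nor did the crenolanib rises of OAS1 and IFI27 (0.113 and 0.148), while the combination falls of PARP9 and CMPK2 did (0.0096 and 0.026). With crenolanib, MX2 passed with the mitochondrial genes left out of the totals (0.32, adjusted p = 0.022) or without crenolanib replicate 1 (0.029), OASL without crenolanib replicate 3 (0.28, adjusted p = 0.049) and CMPK2 without crenolanib replicate 2 (-0.41, adjusted p = 0.0056). Without combination replicate 1, the combination changes of IFIT3 (-0.39), USP18 (-0.81) and CMPK2 (-0.40) passed. Those of IFIT1 (0.60), OAS3 (-0.50) and XAF1 (-0.62) passed without combination replicate 2, and those of OASL (-0.52), HERC5 (-0.87), PARP9 (-0.64) and CMPK2 (-0.94) without combination replicate 3.

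The scaling of the combination libraries sets the sign of part of these values. The deposited FPKM gave a median change of -0.62 over all tested genes for the combination against DMSO, and scaling each library by its median ratio to the others moved this to -0.12. Over all tested genes the split was 1382 higher and 5582 lower as deposited and 2391 and 2911 after median-ratio scaling. For the members it was 5 higher and 5 lower as deposited and 11 and 2 after scaling, and their median moved from -0.046 to 0.34. In both forms the members' median lay above that of all tested genes. STAT2 (-0.40, adjusted p = 0.023) and BST2 were the 2 that fell under both.

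**Figure D4:**
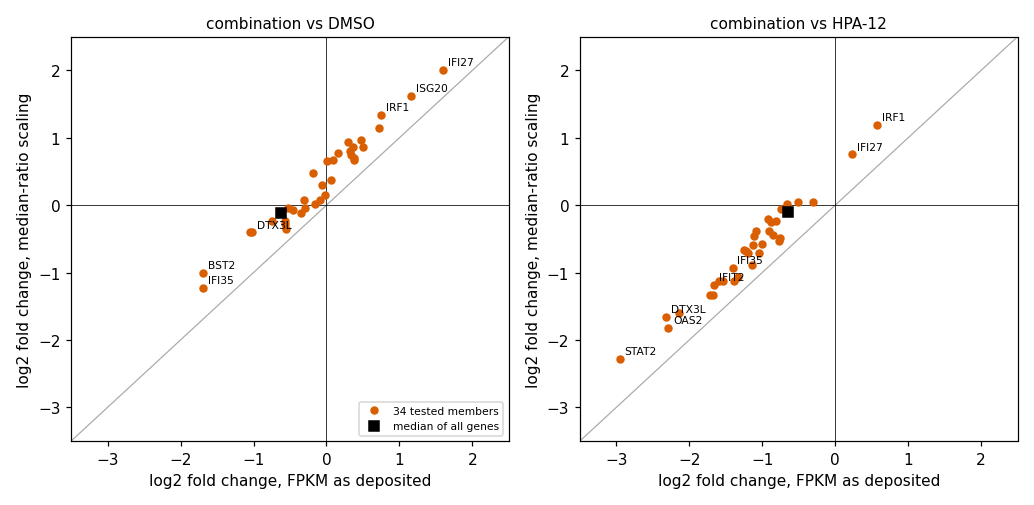
Each orange point is a tested member, placed by its log2 fold change from FPKM as deposited (horizontal) and after median-ratio scaling (vertical), for the combination against DMSO (left) and against HPA-12 (right); the black square is the median of all tested genes and the grey line marks equal values. Points lie above the line throughout, many cross 0 in the left panel, and STAT2 stays lowest at right, at -2.96 and -2.28.

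Set against each other, the single compounds differed in most members, nearly all of them lower with crenolanib. With crenolanib, 23 of the 38 were lower than with HPA-12 and 2 were higher, where 35.1% of all tested genes were lower and 29.0% higher. STAT2 was lower with crenolanib, at -1.42 ± 0.050 (adjusted p = 1.24e-08), OAS2 was at -1.08 ± 0.096 (adjusted p = 7.78e-06) and ISG15 at -1.04 ± 0.090 (adjusted p = 6.64e-06) on the log2 scale. These 3 were the members past 1 log2 unit, a size that 1.88% of all tested genes reached in that direction and 5.96% in the other. The 2 higher with crenolanib were IRF1, at 0.75 ± 0.096 (adjusted p = 8.99e-05), and IFIH1, at 0.40 ± 0.096 (adjusted p = 0.00442). All 4 tested OAS genes were lower with crenolanib, while for IFIT2, IFIT3, SAMD9, SAMD9L, ISG20, IFI44L, HERC5, HERC6 and BST2 the difference did not pass, with values from -0.31 for IFIT2 to 0.20 for SAMD9. In 1 fit that shares its spread over all 12 libraries, 12 were lower and 1 higher, beside 21.7% and 19.7% of all tested genes.

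In FPKM as deposited, though not after median-ratio scaling, adding crenolanib to HPA-12 lowered most members. Against HPA-12 alone, 28 of the 38 were lower with the combination and 1, IRF1, was higher (0.57 ± 0.15 (adjusted p = 0.0135)), where 50.6% of all tested genes were lower and 11.9% higher. The IRF1 call was lost when any 1 HPA-12 library was left out, which left 0 higher, beside 9.37% to 9.83% of all tested genes. By more than 1 log2 unit, 20 were lower, beside 33.4% of all tested genes. STAT2 showed the widest gap, -2.96 ± 0.098 (adjusted p = 1.53e-06), followed by DTX3L at -2.31 ± 0.28 (adjusted p = 4.06e-04), OAS2 at -2.29 ± 0.18 (adjusted p = 5.57e-05) and PARP9 at -2.14 ± 0.21 (adjusted p = 1.40e-04). These 4 also passed under median-ratio scaling, at -2.28, -1.66, -1.82 and -1.60.

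The IFIT, MX and other genes past 1 log2 unit followed. They were MX2 (-1.72), IFIT3 (-1.68), IFIT2 (-1.66), XAF1 (-1.59), EPSTI1 (-1.54), IFI44L (-1.39), USP18 (-1.33), IFI44 (-1.25), SAMD9 (-1.23), SAMD9L (-1.19), OAS1 (-1.14), CMPK2 (-1.12), PARP14 (-1.12), ISG15 (-1.09), HERC5 (-1.04) and IRF9 (-1.002). After median-ratio scaling 14 of the 38 were lower, beside 24.3% of all tested genes, and CMPK2, PARP14, ISG15, HERC5, IRF9 and SAMD9L no longer passed. The median over the tested members was -1.12 as deposited and -0.63 after scaling, beside -0.64 and -0.11 over all tested genes.

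When HPA-12 was added to crenolanib, no member was called higher in limma. Against crenolanib alone, 17 of the 38 were lower with the combination and 0 were higher, where 47.3% of all tested genes were lower and 6.79% higher. At an unadjusted p under 0.05 limma also gave 0 higher, and in 1 fit of all 12 libraries it gave 1 (8.81% of all tested genes). Without crenolanib replicate 2 or 3, 10 were lower, beside 33.3% and 33% of all tested genes. Past 1 log2 unit, 0 were higher (3.30% of all tested genes) and 11 were lower (25.0%): DTX3L (-1.70), STAT2 (-1.53), IFIT3 (-1.44), SAMD9 (-1.43), IFIT2 (-1.35), PARP9 (-1.31), OAS2 (-1.21), IFI44L (-1.10), HERC5 (-1.08), SAMD9L (-1.04) and XAF1 (-1.02). After median-ratio scaling 8 were lower, among them STAT2 (-0.90), IFIT3 (-1.13) and DTX3L (-1.09), and IFI6 was higher at 0.86 (adjusted p = 0.048). Under that scaling 12.9% of all tested genes were lower and 13.6% higher. The members' share of lower calls was close to that of all tested genes as deposited and above it after median-ratio scaling.

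The interaction term compares the HPA-12 effect in cells given crenolanib with that in cells not given it (the combination-crenolanib difference less the HPA-12-DMSO difference). It was negative and passed in 27 of the 38, and positive and passed in 0, where 50.1% and 15.5% of all tested genes did so. At an unadjusted p under 0.05 limma gave 29 negative and 0 positive. Without combination replicate 2 it gave 1 positive after adjustment, beside 17.4% of all tested genes. Past 1 log2 unit it was negative in 24 and positive in 0, beside 36.8% and 9.47% of all tested genes. The median over the tested members was -1.75 as deposited and -1.26 after median-ratio scaling, beside -0.65 and -0.13 over all tested genes. IFIT2 (-3.51 ± 0.25 (adjusted p = 3.40e-07)) and STAT2 (-3.45 ± 0.10 (adjusted p = 7.61e-10)) had the widest terms. BST2, which fell in all treated groups, had a term of -0.022 ± 0.24 (adjusted p = 0.943), which turned to 0.68 (adjusted p = 0.040) under median-ratio scaling.

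**Figure D5:**
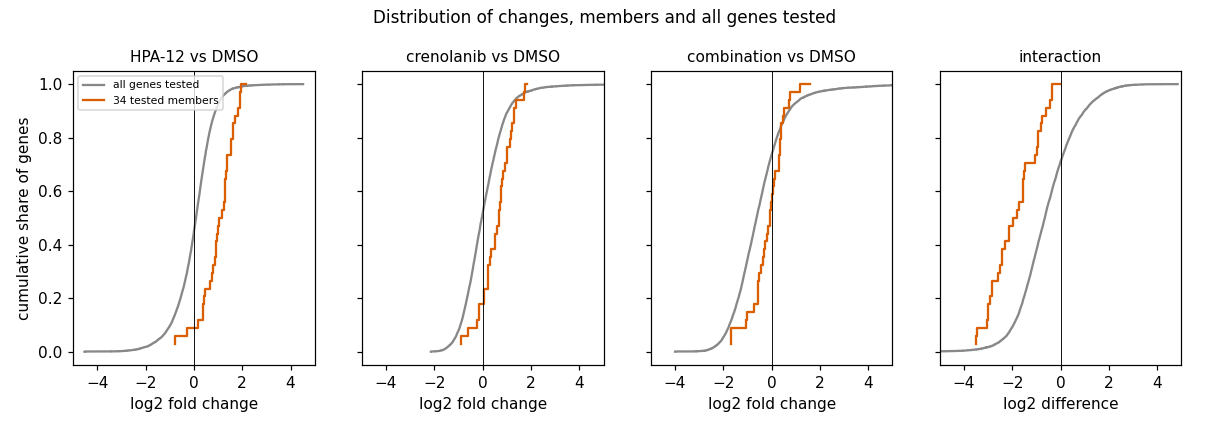
Cumulative share of genes by log2 fold change (first 3 panels, against DMSO) and by interaction term (last panel), for all 11149 tested genes (grey) and the 34 tested members (orange); horizontal axes end at -5 and 5. The orange step lies right of grey for both single compounds and mostly so for the combination, and left of it for the interaction, with medians of -1.75 and -0.65.

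The genes upstream of the members were read from a separate list of 42 pathway genes. Transcripts of the interferons themselves were at or near 0: IFNA1, IFNA2, IFNE, IFNW1 and IFNG were at 0 in all 12 libraries, IFNB1 was found in 1 HPA-12 library (0.186 FPKM) and IFNL1 in 1 DMSO library (0.0935 FPKM). IFNK was at most 0.784 FPKM, in an HPA-12 library. Of the 42, 28 were tested. With HPA-12, 15 rose and 10 fell, with crenolanib 12 rose and 10 fell, and with the combination 5 rose and 19 fell, beside the shares of all tested genes given above.

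The tested receptors and kinases rose with HPA-12, except IFNGR2. IFNAR1 and IFNAR2, the chains of the type I receptor, changed by 0.43 ± 0.085 (adjusted p = 9.03e-04) and 0.45 ± 0.11 (adjusted p = 0.00256) with HPA-12 and by -0.93 ± 0.24 (adjusted p = 0.0120) and -0.99 ± 0.20 (adjusted p = 0.00504) with the combination. The IFNAR1 combination call was lost under median-ratio scaling (-0.47, adjusted p = 0.19) and without DMSO replicate 2 (adjusted p = 0.054), and its HPA-12 call in 1 fit of all 12 libraries (adjusted p = 0.066). IFNAR2 was at 0, 0 and 0.423 FPKM in the combination libraries, beside 1.91 to 2.17 with HPA-12. TYK2, the kinase bound to IFNAR1, averaged 44.5 ± 1.19 FPKM (SD, n = 3) in DMSO, 94.7 ± 2.67 under HPA-12, 46.9 ± 2.15 under crenolanib and 21.6 ± 1.66 under the combination. Like STAT2, TYK2 was thus highest with HPA-12 and lowest with the combination, at 1.07 ± 0.043 (adjusted p = 5.41e-09) and -1.01 ± 0.091 (adjusted p = 1.28e-04) against DMSO. JAK1 rose by 1.10 ± 0.058 (adjusted p = 4.29e-08) and 0.77 ± 0.071 (adjusted p = 9.39e-06) with the single compounds and was at -0.52 ± 0.18 (adjusted p = 0.0398) with the combination, a value that reversed to 0.10 under median-ratio scaling and did not pass when any 1 DMSO library or combination replicate 2 or 3 was left out (adjusted p 0.051 to 0.13). JAK2 rose in all 3, by 0.89, 1.20 and 0.99.

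The receptor of interferon gamma split by chain. IFNGR1, which binds the ligand, rose by 1.45 ± 0.096 (adjusted p = 2.18e-07) with HPA-12, by 1.47 ± 0.085 (adjusted p = 4.44e-07) with crenolanib and by 0.43 ± 0.16 (adjusted p = 0.0480) with the combination. The last call was lost when any 1 DMSO library (adjusted p 0.074 to 0.16) or combination replicate 1 or 3 (0.090 and 0.087) was left out. IFNGR2, which brings in JAK2, was at -0.22, 0.32 and -1.15, all of which passed. Its HPA-12 fall was lost with the mitochondrial genes left out of the totals (-0.11, adjusted p = 0.076) and in 1 fit of all 12 libraries (adjusted p = 0.179). IL10RB, shared with the receptor of lambda interferons, was at 0.74, 0.0022 and -0.61, and the crenolanib value did not pass. Its combination call was lost in 12 of the 14 alternative settings. Among these were the fits without any 1 DMSO library (adjusted p 0.092 to 0.14), without combination replicate 2 or 3, and under median-ratio scaling (-0.42, adjusted p = 0.255).

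The largest pathway change was in SOCS1, an inhibitor of JAK kinases, and it followed crenolanib. SOCS1 averaged 4.62 ± 0.427 FPKM (SD, n = 3) in DMSO, 1.93 ± 0.311 under HPA-12, 164 ± 7.97 under crenolanib and 325 ± 8.26 under the combination. Its changes were -0.94 ± 0.10 (adjusted p = 9.09e-06), 4.87 ± 0.069 (adjusted p = 8.70e-11) and 5.86 ± 0.087 (adjusted p = 6.30e-08). SOCS3, a related inhibitor, changed in the same directions, at -0.99, 0.99 and 1.82. Both fell with HPA-12, where most members rose. With crenolanib both rose, and 24 of the 38 members rose and 2 fell, beside 36.1% and 39.4% of all tested genes. Both were highest with the combination, where the libraries of 7 members lay above DMSO, those of 10 below and those of 21 overlapped it. Of the genes of the table, 9.56% lay above and 37.2% below. The part of SOCS1 or SOCS3 in the members' levels was not tested.

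Several myeloid regulators and sensors on this list, named for the size of their change, fell instead. Of the 10 tested sensors and adaptors, 3 rose and 4 fell with HPA-12, and 3 rose and 6 fell with crenolanib. With the combination 1 rose and 7 fell. Of the 5 factors, 3 rose and 2 fell, 1 rose and 3 fell, and 0 rose and 5 fell in the same order. Of all tested genes, 43.2%, 36.1% and 12.4% rose and 34.5%, 39.4% and 50.1% fell. Their median with the combination was -0.62. IRF8, a factor of monocytes and dendritic cells, was at -0.77, -1.04 and -2.55 with HPA-12, crenolanib and the combination, and IRF5 at -0.15, -0.93 and -2.31. CGAS, the sensor of cytosolic DNA, was at -1.01, -1.003 and -1.92. UNC93B1, which escorts nucleic-acid Toll-like receptors, was at -0.67, -1.33 and -2.22, and the phosphatase PTPN6 at -0.72, -1.26 and -1.83. MAVS, the adaptor below IFIH1, rose with HPA-12 (0.25) but fell under crenolanib (-0.64) and under the combination (-2.37). All of these passed; the HPA-12 fall of IRF5 was lost with the mitochondrial genes left out of the totals (-0.050, adjusted p = 0.39), in 1 fit of all 12 libraries (adjusted p = 0.15) and without DMSO replicate 1 (adjusted p = 0.066).

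A further 35 genes that interferon also induces, none of them members, moved in both directions. Of these, 31 were tested: 14 rose and 10 fell under HPA-12, 12 rose and 15 fell under crenolanib, and 2 rose and 20 fell under the combination. Their medians were 0.19, -0.098 and -0.78, beside 0.090, -0.039 and -0.62 over all tested genes, of which 43.2%, 36.1% and 12.4% rose and 34.5%, 39.4% and 50.1% fell. The 5 that rose by more than 1 log2 unit with HPA-12, picked out after their values were seen, were EIF2AK2 (1.47), the kinase PKR that halts translation on double-stranded RNA, TRIM56 (1.18), RNF213 (1.17), SP110 (1.07) and GBP5 (1.01). With the combination TRIM56, RNF213 and SP110 fell (-1.23, -0.78 and -0.55), GBP5 rose (0.50) and EIF2AK2 was at -0.50 ± 0.20 (adjusted p = 0.0593). The 8 with the largest change in any comparison with DMSO, described next, all had it as a fall. LY6E, a surface protein, averaged 34.9 ± 2.03 FPKM (SD, n = 3) in DMSO and 10.9 ± 0.375 under HPA-12, a change of -1.59 ± 0.057 (adjusted p = 2.52e-09). TRIM14, an adaptor of antiviral signalling, fell in all 3, at -2.20, -1.33 and -2.44, and IFITM1, which blocks viral entry, at -0.80, -1.05 and -1.65. CXCL10, a chemokine, fell with HPA-12, from 3.39 ± 0.224 to 0.888 ± 0.326 FPKM (-1.23 ± 0.12 (adjusted p = 4.94e-06)), and was listed at 0 in every combination library. LAP3, a peptidase, fell in all 3 (-0.39, -0.36 and -1.63). TRIM21, TRIM25 and HELZ2 fell with crenolanib (-0.91, -0.53 and -0.44) and with the combination (-1.78, -2.31 and -1.70), and with HPA-12 TRIM25 rose by 0.19, a call lost without DMSO replicate 1 (adjusted p = 0.056) and in 1 fit of all 12 libraries (0.518), where its crenolanib fall did not pass either (0.068).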

How the data were processed

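RNA of MV-4-11 was sequenced by the authors in 12 libraries. Per the file headers, the deposited table holds FPKM, 1 column per library, and all 12 columns were matched by name, with 0 left over; sample titles and columns shorten crenolanib differently and were taken to mean 1 compound. The sources used here name no aligner, counter, build or annotation.

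Symbols came from a gene name table (20011 of 20036 identifiers). Log2(FPKM + 1) was fitted with limma 3.58.1 (R 4.3.3, statmod 1.5.0 for the robust alternative), empirical Bayes with a mean-variance trend, on the 6 libraries of each pair of groups and on all 12 for the interaction, over the 11149 genes that reached 1 FPKM in 3 or more libraries. Adjusted p-values are Benjamini-Hochberg, two-sided, over all genes tested and 7 comparisons were made. Pairs were fitted alone because the combination libraries spread more than the others. The fits were tried on simulated data with 11149 genes, with changes planted in a small part of them. Changes of 1 log2 unit were recovered in 95% of planted genes for HPA-12 vs DMSO, 88% for crenolanib vs DMSO and 89% for crenolanib vs HPA-12. The recovery was 44% for combination vs DMSO, 37% for combination vs HPA-12, 31% for combination vs crenolanib and 60% for the interaction. Far larger shares were called in the data (43.2% higher and 34.5% lower for HPA-12 vs DMSO). These recoveries thus do not give the power of the fits on these libraries.

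Read counts were not recovered: each depth is the one that made the largest share of values under 20 reads whole within 0.01 read, using GENCODE release 29 exon lengths, and that share was 38.8% in DMSO and 30.8% in the combination, so depths are estimates and their counting error is not known. Reads per member quoted are rounded from these estimates.

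Members and lists were chosen with earlier results of these data known. Named are all tested members against DMSO, members past 1 log2 unit elsewhere, and, of the pathway and other induced lists (20 and 22 genes past 1 log2 unit), the 8 largest each plus ligands, receptors and kinases; IFNLR1, among the receptors, was not tested. Values per library are given for 16 members. Alternatives were 1 fit of all 12 libraries, median-ratio and upper-quartile scaling, library totals without mitochondrial genes, a pseudocount of 0.1, no filter, robust empirical Bayes, a replicate block and each library left out. Promoter windows came from RefSeq.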

Additional observations from a re-analysis of the deposited data

Results flagged for a closer look

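The HPA-12 effect differed between cells with and without crenolanib in 24 members by at least 1 log2 unit, tested by the interaction term in limma on all 12 libraries (adjusted p under 0.05). Over all tested genes the median of this term was -0.65 as deposited and -0.13 after median-ratio scaling, so part of each value is shared by most genes.

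Among the factors and the sensor, the term was -3.45 for STAT2, -1.52 for IRF7, -1.04 for IRF9 and -1.79 for IFIH1. In the IFIT, MX and OAS families it was -1.71 for IFIT1, -3.51 for IFIT2, -2.83 for IFIT3, -1.96 for MX2, -1.48 for OAS1 and -3.04 for OAS2. Of the genes around ISG15 and ADP-ribosylation, USP18 had -1.55, HERC5 -1.55, PARP9 -2.92, PARP14 -2.14 and DTX3L -2.99. The effectors RSAD2, TRIM22, SAMD9, SAMD9L and ISG20 had -2.13, -1.55, -2.98, -2.57 and -2.51. The term was -2.41 for IFI44, -2.41 for IFI44L, -2.30 for XAF1 and -2.83 for EPSTI1.

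The sign was negative in all 24 under each alternative run. IFIH1 no longer passed after median-ratio scaling (-1.20, adjusted p = 0.073) or upper-quartile scaling (-1.22). IRF7, IRF9 and TRIM22 passed but were under 1 log2 unit after median-ratio scaling, at -0.83, -0.61 and -0.92. The combination libraries that enter this term were also the shallowest and held the highest mitochondrial and erythroid shares; their part in it was not tested.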

How the results depend on the processing

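The counts of members higher with HPA-12 (31) or crenolanib (24) than DMSO stayed within 25 to 35 and 20 to 25 under all alternatives, and those with a negative interaction (27) within 23 to 31. With 1 fit of all 12 libraries, lower members numbered 1 for HPA-12 vs DMSO (2 in the main analysis), 1 for crenolanib vs DMSO (2), 8 for combination vs DMSO (5) and 12 for crenolanib vs HPA-12 (23), and higher ones 1 for crenolanib vs HPA-12 (2) and 1 for combination vs crenolanib (0). Median-ratio and upper-quartile scaling gave the same counts: for combination vs DMSO 11 higher (5) and 2 lower (5), for combination vs HPA-12 14 lower (28), for combination vs crenolanib 1 higher (0) and 8 lower (17), and for the interaction 1 positive (0). Leaving mitochondrial genes out of the totals and using no filter on low values each gave 1 lower for HPA-12 vs DMSO and 3 lower for combination vs DMSO. JAK1 in combination vs DMSO reversed from -0.52 to 0.10 under both scalings. A pseudocount of 0.1 and robust empirical Bayes moved no count by over 1.5 times. The cause of these shifts was not tested.

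With the replicate block, combination vs DMSO gave 3 higher and 3 lower and combination vs HPA-12 gave 0 higher (1); it moved no other count by over 1.5 times. Same-numbered libraries did not deviate together (r from -0.029 to 0.068 over 18 pairs, 0 over 0.1), so the numbers were not taken as pairs.

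Leaving out 1 library gave 1 to 2 lower for HPA-12 vs DMSO (1 without DMSO replicate 2 or 3). For combination vs DMSO it gave 2 to 6 higher and 2 to 9 lower, beside 9.39% to 14% and 40% to 52.6% of all tested genes. For combination vs HPA-12 it gave 0 to 2 higher (2 without combination replicate 1). For combination vs crenolanib 0 to 1 were higher (1 without combination replicate 1) and 10 to 19 lower. Of all tested genes, 4.93% to 7.22% were then higher and 33% to 49.4% lower. The interaction had 0 to 1 positive. At the estimated depth of the combination libraries many low members rest on few reads, such as 0, 15 and 30 for HERC5, so a missing call there does not show that a level did not differ.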
